A study of Mus musculus with 6 samples.

Results

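The nuclear genes of the respiratory chain complexes were described in livers lacking the cholesterol and phospholipid transporter Abca1 in hepatocytes. The set held 58 genes, chosen by name from the subunits of complexes I to V and somatic cytochrome c, and each had a row among the 29981 rows of the deposited table. The rows of Cyc1 and Atp5j2 also name a second transcript, so their values are shared. Liver RNA of C57BL/6 mice was sequenced in 3 libraries with the deletion, which an Albumin-driven Cre recombinase makes in hepatocytes (HSKO), and in 3 libraries of floxed controls, labelled wildtype (WT). Food was withheld from 9 am to 1 pm on the day of collection in both groups. Whether the controls carry Cre, the age and sex of the mice and whether each library is 1 animal are not stated in the sources used, and each p-value therefore reflects only how these libraries scatter, which may be technical. Other liver cells keep Abca1 and contribute RNA to every library, and in bulk tissue fewer cells of a type and less RNA per cell cannot be told apart.

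The respiratory chain of the inner mitochondrial membrane passes electrons from NADH (complex I) and succinate (complex II) to ubiquinone, on to cytochrome c (complex III) and to oxygen (complex IV). Complexes I, III and IV pump protons, and complex V, the ATP synthase, uses the returning protons to make ATP. Most subunits are encoded in the nucleus and imported, while a small core is encoded by mitochondrial DNA. In liver the chain reoxidises the NADH and reduced flavins made by fatty acid oxidation.

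The libraries were shallow. They held 838637 to 933319 reads in WT and 631020 to 702013 in HSKO, and a single row, BC071253, took 43.1% to 57.8% of them. The deposited values are reads after division by each library's size factor. Abca1, the check of the labels, had 20, 36 and 34 reads in WT and 2, 1 and 2 in HSKO. Transcripts of most hepatocyte markers were also fewer. All 13 markers of a list headed by Alb were detected in every library. Their summed value ranged from 12320.9 to 15018.2 in WT and from 7465.95 to 10715.8 in HSKO. The log2 fold change was below 0 for 12 and above 0 for 1 (0.74). By limma, as described below, 6 were called lower and 0 higher, against 11.6% and 28.5% of all rows tested. Their share of reads was 2.54 times lower in HSKO. The same ratio was 2.07 for the 58 respiratory chain genes, 2.46 for endothelial markers, 3.63 for stellate cell markers and 0.976 for mitochondrial ribosomal proteins. Stellate cell and fibroblast markers summed to 32.1 to 37.2 in WT and 10.2 to 20.4 in HSKO over 7 genes. Kupffer cell markers (8 genes) summed to 35.1 to 82.9 against 23.4 to 59.8, and endothelial markers (7 genes) to 30.9 to 36.7 against 11.6 to 32.2. Cholangiocyte markers (5 genes) summed to 10.7 to 15.8 against 5.32 to 17.5, with Krt19 and Krt7 at 0 in every library. Lymphocyte markers (6 genes) summed to 1.13 to 3.29 against 0 to 3.99, with Cd3e, Cd8a and Ms4a1 at 0 in every library. The part of cell composition in the results below was not tested.

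Most respiratory chain genes had lower values in HSKO, by amounts that few single genes carried past the test. Averaged over libraries, 46 of the 58 genes were lower in HSKO and 12 higher. The same share was not counted over all 13807 rows with a read. With no minimum level, however, the median log2 fold change of those rows was itself below 0 (-0.22). A mean of at least 10 over the 6 libraries, the level set for testing, was reached by 31 genes. Of these, 2 were called lower by limma (adjusted p below 0.05 over all 2750 rows tested), Cox7b of complex IV and Atp5a1 of complex V, and 0 were called higher. Among all rows tested, 11.6% were called lower and 28.5% higher (40.1% in all), so 2 of 31 (6.45%) is no larger a share of falls than the table as a whole gave. At an unadjusted p below 0.05, limma had 5 of the 31 lower and 0 higher, against 17.2% and 32.1% of all rows. By edgeR and DESeq2, 4 and 1 were called lower, against 16.6% and 11.8% of all rows, and 0 higher by either, against 26.6% and 21.2%. These shares of falls were likewise no larger than those of all rows.

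The log2 fold change (HSKO minus WT, of log2(value + 1)) was below 0 for 27 of the 31 genes, against 47.7% of all rows, but for 7 when libraries were scaled to hepatocyte markers. Its median was -0.41, against 0.07 over all rows, and it ran from -0.87 (Atp5o) to 0.29 (Atp5g3). The 3 HSKO values all lay under the 3 WT values for 10 genes (32.3%), against 20.1% of all rows. The HSKO values all lay above WT for 0 genes, against 31.4% of all rows. Of the 31 genes, 5 reached the level for testing although their HSKO mean was under 10 (Ndufs1, Ndufv1, Ndufa5, Uqcrfs1 and Atp5o) and 0 although their WT mean was, so these counts describe the 31 genes and not all 58. The standard errors ran from 0.24 to 0.43, and for 13 genes the 95% interval excluded a 2-fold fall (66.8% of all rows). The smallest fall called among the 2261 rows at the level of these genes was -0.64, and no smaller fall was called there. Larger falls could also go uncalled at this depth, such as those of Ndufs1 (-0.69), Atp5j (-0.77) and Atp5o (-0.87).

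**Figure D1:**
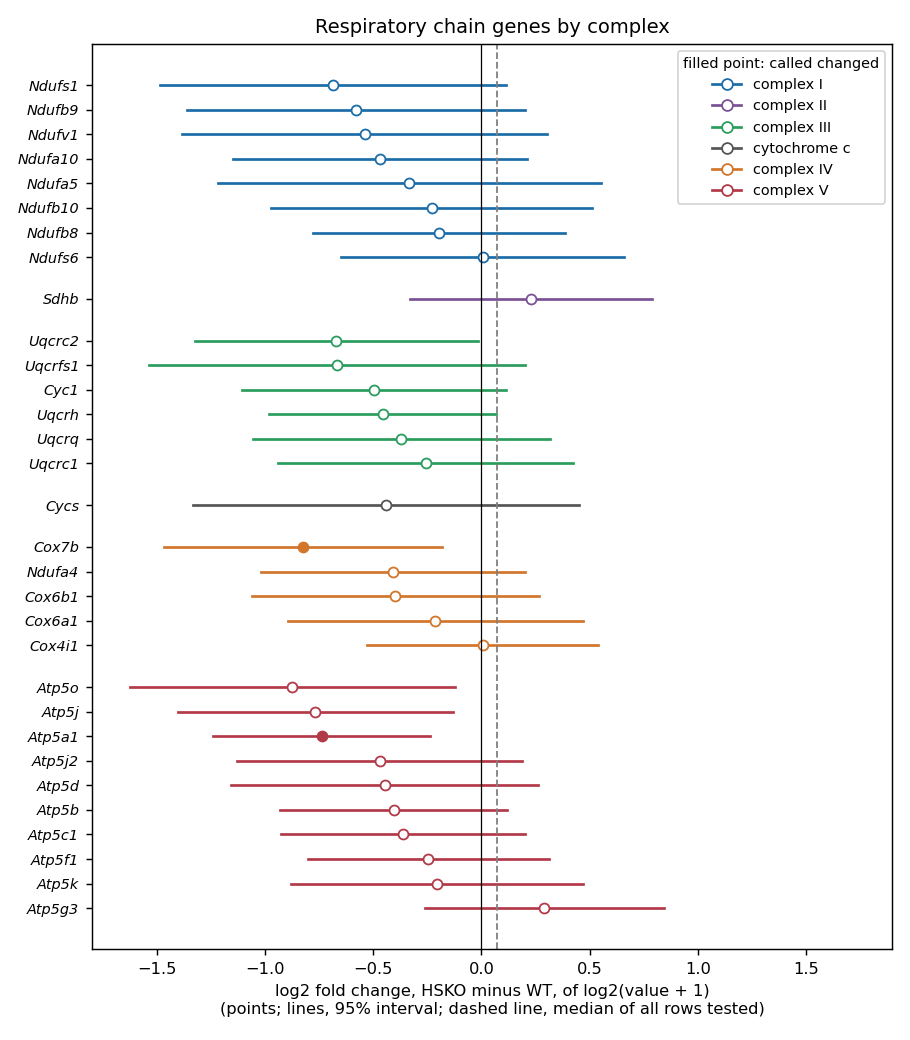
Log2 fold change, HSKO minus WT, on the horizontal axis for the 31 respiratory chain genes tested, in rows grouped by complex. Points are estimates with 95% intervals, filled where called changed (Cox7b and Atp5a1). The dashed line is the median of all rows tested (0.07), and 27 of the 31 points lie left of 0 (7 with hepatocyte marker scaling).

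Complex I, the NADH dehydrogenase, had 8 of its 21 listed subunits at the level for testing, and 0 were called in either direction. The median log2 fold change was -0.40, with 7 of 8 below 0, against 47.7% of all rows. Ndufs1, Ndufv1 and Ndufa5 reached the level for testing although their HSKO mean was under 10, so these values describe the tested genes only. At an unadjusted p below 0.05, limma had 0 in this complex, and edgeR and DESeq2 called 0. Ndufs1, the largest core subunit and a carrier of iron-sulfur clusters, was at 13.0, 12.5 and 14.7 in WT and 10.2, 7.27 and 6.65 in HSKO. It was the only tested gene of the complex whose groups did not overlap (log2 fold change -0.69, SE 0.38, limma adjusted p = 0.156). Ndufv1, the core subunit that binds NADH, averaged 12.1 ± 0.584 among WT libraries against 8.36 ± 3.20 with the deletion (SD, n = 3).

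Among the accessory subunits of complex I, the most highly read were Ndufb8 and Ndufa10. Ndufb8 was at 24.4, 27.6 and 24.8 in WT and 27.8, 17.4 and 22.6 in HSKO. Its groups overlapped, and the interval of its log2 fold change, -0.78 to 0.39, excluded a 2-fold fall. Ndufa10 was at 18.3, 21.1 and 29.3 in WT and 10.2, 17.4 and 22.6 in HSKO, with its lowest value in HSKO replicate 1. Ndufs6 had the highest fold change of the 8 tested genes of the complex, a value near 0 (0.006, SE 0.31). Against 20.6, 17.8 and 17.5 in WT, the HSKO libraries gave 27.8, 17.4 and 13.3 and lay on both sides. Ndufb9 was at 19.1 ± 0.0547 in WT (SD, n = 3), from only 25, 29 and 34 reads. In HSKO it ranged from 5.85 in replicate 1, with 4 reads, to 19.9 in replicate 3, with 15. Its groups overlapped (limma adjusted p = 0.219).

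Complex II, the succinate dehydrogenase, had 1 of its 3 listed subunits at the level for testing, and that subunit was not lower in HSKO. Sdhb, which carries its iron-sulfur clusters, was at 24.4, 25.7 and 31.0 in WT and 26.3, 36.4 and 33.2 in HSKO. The groups overlapped and the log2 fold change was 0.23 (SE 0.27, 95% interval -0.33 to 0.79, limma adjusted p = 0.503). The membrane anchors were too low to test. Sdhd had 9, 24 and 18 reads in WT against 2, 4 and 3 in HSKO, a ratio of HSKO to WT reads, corrected for size factors, of 0.382 (exact 95% interval 0.166 to 0.784, for counting error alone). Without a minimum level, its limma adjusted p was 0.135. Sdhc had 2, 8 and 16 reads in WT and 4, 3 and 7 in HSKO. Sdha, the flavoprotein subunit and no member of the set, fell from 50.9 ± 5.80 to 28.9 ± 14.1 (log2 fold change -0.89, SE 0.30, limma adjusted p = 0.0252), so the 2 tested genes of this complex differed in sign. That difference between Sdha and Sdhb was not tested. Sdha did not pass once libraries were scaled to hepatocyte markers (adjusted p = 0.626).

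Complex III, which passes electrons from ubiquinol to cytochrome c, had log2 fold changes below 0 in all 6 tested genes of 7, against 47.7% of all rows. One of them, Uqcrfs1, reached the level for testing although its HSKO mean was under 10. The median was -0.48, which turned to 0.16 with hepatocyte markers, and 0 were called. Uqcrh, the hinge protein, was the most highly read at 47.3, 44.1 and 48.5 in WT and 33.6, 30.5 and 37.2 in HSKO. Its groups did not overlap and its log2 fold change was -0.46 (SE 0.25, limma adjusted p = 0.149). Uqcrc2, a core protein, was at 19.1, 23.7 and 23.1 in WT and 17.5, 14.5 and 9.31 in HSKO, also without overlap (-0.67, SE 0.31, limma adjusted p = 0.0934). Cyc1, the cytochrome c1, was at 27.5, 22.4 and 18 in WT and 14.6, 16.0 and 16.0 in HSKO, just under the lowest WT value. Uqcrc1 overlapped between groups, at 20.0 ± 6.10 and 16.4 ± 4.39 (SD, n = 3). At an unadjusted p below 0.05, limma had 1 gene of this complex, Uqcrc2, while edgeR and DESeq2 with adjustment called 0.

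Cycs, the cytochrome c that carries electrons from complex III to complex IV, was at 9.92, 15.8 and 13.5 in WT and 4.38, 11.6 and 14.6 in HSKO. HSKO replicate 1 alone lay below all WT libraries, with 3 reads. The log2 fold change was -0.44 (SE 0.43), and 0.019 without that replicate.

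Complex IV, the cytochrome c oxidase, held, among tested genes, the one with the lowest fold change outside complex V and one of the steadiest. Its nuclear subunits surround a catalytic core that mitochondrial DNA encodes. Ndufa4 is counted here, since it was named for complex I and later assigned to complex IV. Of 11 genes 5 were tested, with a median of -0.40. Among these 5, 1 was called lower and 0 higher, against 11.6% and 28.5% of all rows. At an unadjusted p below 0.05, limma had 1 lower, against 17.2% of all rows. With adjustment, edgeR called 1 lower and DESeq2 0, against 16.6% and 11.8%. Cox7b, a small accessory subunit (chromosome X, 106015700 to 106022450 in mm10, forward strand), was at 31.3, 32.9 and 37.2 in WT and 13.2, 30.5 and 16.0 in HSKO. The groups did not overlap, although HSKO replicate 2 was close to WT. The log2 fold change was -0.82 (SE 0.31, limma adjusted p = 0.0397). The call was lost under 10 of 18 alternatives (adjusted p from 0.00162 to 0.715 over all), among them leaving out WT replicate 1, 2 or 3 or HSKO replicate 1 or 3 (0.0522, 0.0890, 0.125, 0.160 and 0.0971).

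Cox4i1, the ubiquitous isoform of subunit 4, was at 31.3, 30.9 and 30.5 in WT and 29.2, 32 and 31.9 in HSKO. All 6 values lay within a narrow band, and the 95% interval of the log2 fold change ran from -0.53 to 0.54. Cox6b1, which faces cytochrome c, was at 28.7 ± 9.44 in WT and 21.8 ± 8.78 in HSKO, Ndufa4 at 22.4 ± 4.61 and 16.5 ± 2.17, and Cox6a1, the liver isoform of subunit 6a, at 17.1 ± 5.27 and 14.1 ± 0.827 (SD, n = 3). The groups of these 3 genes overlapped and their limma adjusted p lay between 0.272 and 0.622.

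Complex V, the ATP synthase, had 10 of 15 genes tested, with a median of -0.43. Of these, 1 was called lower and 0 higher, against 11.6% and 28.5% of all rows, and 9 were below 0, against 47.7%. One of the 10, Atp5o, reached the level for testing although its HSKO mean was under 10. At an unadjusted p below 0.05, limma had 3 lower, against 17.2% of all rows. With adjustment, edgeR called 3 lower and DESeq2 1, against 16.6% and 11.8%. Its catalytic head, F1, is built from the products of Atp5a1, Atp5b, Atp5c1, Atp5d and Atp5e. Atp5a1, the alpha subunit (chromosome 18, 77773729 to 77782869 in mm10, forward strand), was at 78.6, 86.2 and 100.4 in WT and 54.1, 53.8 and 49.2 in HSKO. The HSKO libraries were close to each other and well below WT, with 37 reads in each. The log2 fold change was -0.74 (SE 0.24, limma adjusted p = 0.0201). It was not called under 5 of 19 alternatives (adjusted p from 0.000519 to 0.853 over all), among them leaving out WT replicate 2 or 3 or HSKO replicate 2 (0.0669, 0.0661 and 0.0525).

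Atp5b, the catalytic beta subunit and the most highly read gene of the set, was at 99.2, 105.9 and 103.2 in WT and 57.0, 85.8 and 94.4 in HSKO. All HSKO values lay below WT, but they were spread out, and the log2 fold change of -0.41 (SE 0.25) did not pass (limma adjusted p = 0.199). Atp5c1, the rotor shaft, was at 33.7 ± 4.14 and 26.2 ± 5.15, and Atp5d at 21.9 ± 8.41 and 15.7 ± 5.73 (SD, n = 3).

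The peripheral stalk, which holds the head still against the turning rotor, contains the products of Atp5f1, Atp5h, Atp5j and Atp5o. Atp5o, its OSCP subunit, had the lowest fold change of the 31 tested genes. It was at 15.3, 13.8 and 20.3 in WT and 8.77, 10.2 and 6.65 in HSKO, without overlap (log2 fold change -0.87, SE 0.36, limma adjusted p = 0.0591). Atp5j, coupling factor 6, missed the threshold by little. It was at 20.6, 27.0 and 27.6 in WT and 10.2, 17.4 and 16.0 in HSKO (-0.77, SE 0.30, limma adjusted p = 0.0501). Atp5f1, subunit b, overlapped between groups at 34.0 ± 1.08 and 29.0 ± 6.37 (SD, n = 3).

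The rotor ring is made of subunit c, for which 3 genes encode the same mature protein behind different import sequences. Nearly all reads came from Atp5g3, at 31.3, 30.3 and 27.6 in WT and 29.2, 39.3 and 42.6 in HSKO. HSKO replicates 2 and 3 lay above all WT libraries and replicate 1 among them, with a log2 fold change of 0.29 (SE 0.26, 95% interval -0.26 to 0.84, limma adjusted p = 0.385). Atp5g1 had 2, 6 and 6 reads in WT and 0, 2 and 0 in HSKO, and Atp5g2 had 0, 4 and 4 reads in WT and 0 in each HSKO library, where 3 reads is the limit that a count of 0 allows per library. The exact 95% interval of the HSKO to WT read ratio was 0.0342 to 1.35 for Atp5g1 and 0 to 1.27 for Atp5g2, so for neither was a difference detectable at this depth. Per kilobase of the median annotated coding transcript, the mean normalized value over the 6 libraries was 46.4 for Atp5g3, 0.733 for Atp5g1 and 1.39 for Atp5g2.

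**Figure D2:**
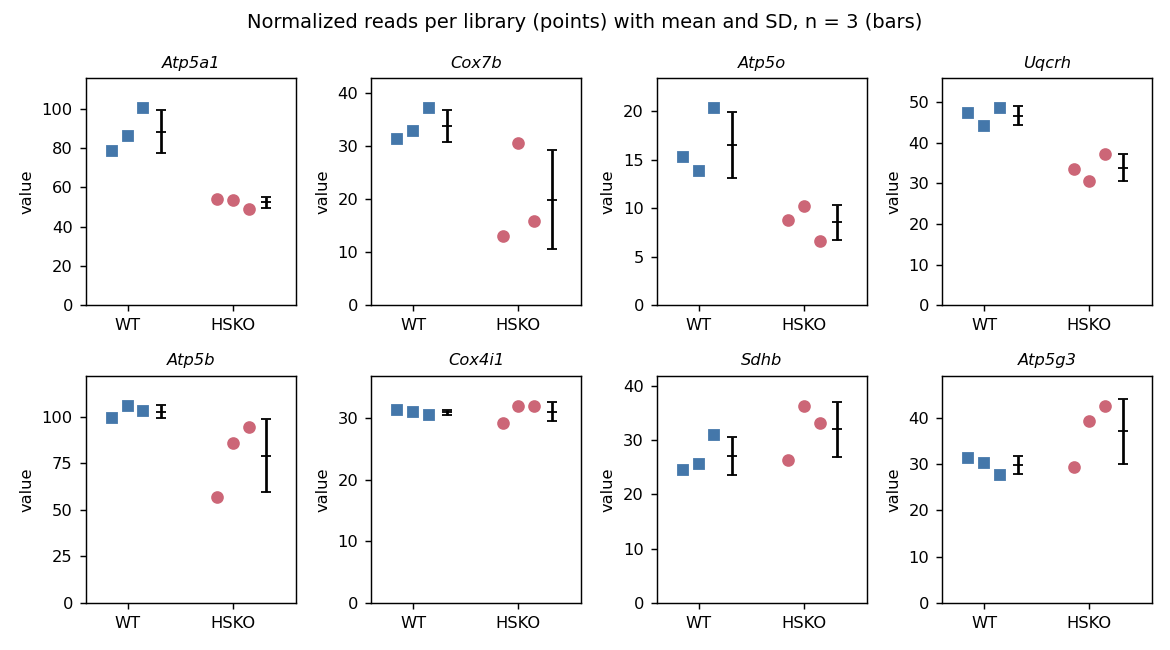
Normalized reads (vertical axes, from 0) of 8 genes in each WT library (squares) and HSKO library (circles), with mean and SD (n = 3) as bars. The HSKO points of Atp5a1 sit between 49.2 and 54.1 under WT values of 78.6 to 100.4, while those of Cox4i1, Sdhb and Atp5g3 overlap WT.

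Summed over the genes of a complex, which pools the few reads of each, values were lower in HSKO for complexes I, III and V. Complex III went from 152.6 ± 11.4 to 106.6 ± 11.6, complex V from 414.5 ± 10.9 to 314.3 ± 44.4 and complex I from 226.0 ± 6.00 to 185.7 ± 21.4 (SD, n = 3), and in each the groups did not overlap. These sums are a description with no test. In complex V the libraries were at 402.9, 415.9 and 424.7 in WT and 264.6, 328.6 and 349.7 in HSKO, and in complex III at 151.1, 142.1 and 164.7 against 93.5, 110.5 and 115.7. Complex IV, at 181.8 ± 21.5 and 147.2 ± 25.4, and complex II, at 43.2 ± 9.20 and 42.7 ± 6.62, overlapped. All 58 genes together were at 1002.01, 1002.24 and 1089.65 in WT against 692.807, 824.478 and 902.960 in HSKO. Their ratio was 0.782, HSKO over WT, beside 0.638 for the hepatocyte markers. Total reads of the 58 genes in a library were 1313 to 1932 in WT and 474 to 679 in HSKO.

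HSKO replicate 1 stood lowest in the group. It gave the lowest of the 3 HSKO values for 20 of the 31 tested genes (64.5%), against 37.6% of all rows tested. It held 474 reads of the set against 567 and 679 in HSKO replicates 2 and 3. With 631020 reads it was also the shallowest library, and the set took 0.0751% of them, against 0.0808% and 0.105%. Its hepatocyte marker sum, 7465.95, was likewise the lowest of the 6 libraries. Without it, the median log2 fold change of the 31 genes was -0.25, and 1 gene, Atp5a1, was called lower.

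**Figure D3:**
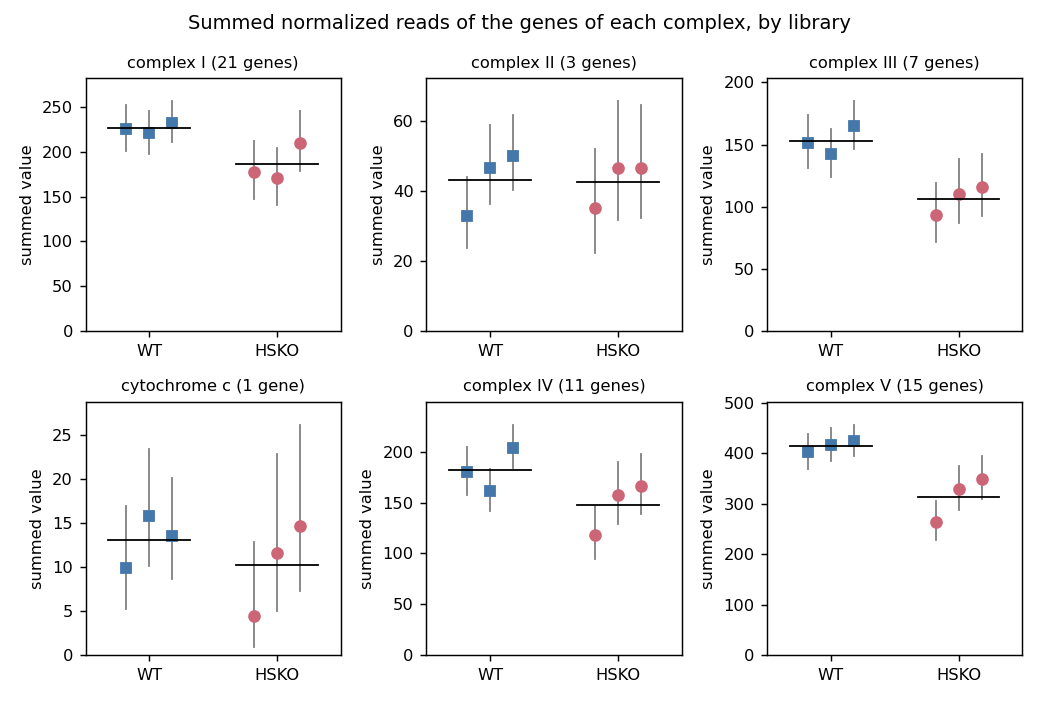
Summed normalized reads (vertical axes, from 0) of all listed genes of each complex in the WT (squares) and HSKO (circles) libraries. Horizontal bars are group means and grey lines exact 95% counting intervals. Groups are apart in complexes I, III and V and overlap in complexes II and IV and for cytochrome c.

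How libraries were scaled moved all of these genes together and set how many were called. With each library scaled to its total reads, 22 of the 31 were called lower (38.0% of all rows), with a median of -1.06 against -0.57 over all rows. Scaled to the summed reads of hepatocyte markers, 0 were called lower (0.582% of all rows) and 2 were called higher, Sdhb and Atp5g3 (42.7% of all rows). Their median was then 0.22, against 0.70 over all rows. Upper quartile scaling, quantile normalization, edgeR and DESeq2 gave medians of -0.31, -0.48, -0.51 and -0.56 with 1, 5, 4 and 1 called lower, beside 7.56%, 18.3%, 16.6% and 11.8% of all rows. The direction of the median therefore flipped with scaling to hepatocyte markers. Since a scaling shifts all rows of a library alike, the distance of the 31 genes from the median of all rows (-0.48 as deposited) can hardly move with it. That distance was -0.33 without HSKO replicate 1, -0.34 with a pseudocount of 10 and -0.18 with no minimum mean, over all 58 genes. Scaled to the summed reads of the 58 genes themselves, a choice made after seeing the data, 0 were called in either direction, and at that scaling Cox7b and Atp5a1 had adjusted p of 0.266 and 0.279 by limma.

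**Figure D4:**
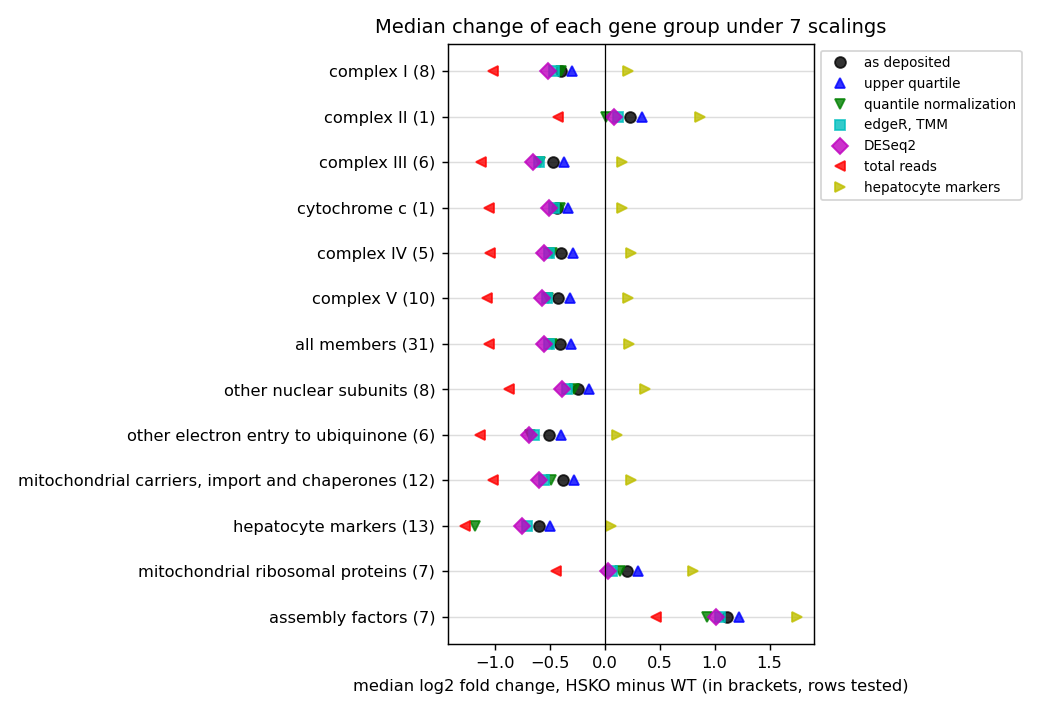
Median log2 fold change, HSKO minus WT (horizontal axis), of the tested genes of each complex and of other gene lists (rows, number tested in brackets) under 7 scalings (symbols). The median of the 31 respiratory chain genes runs from -1.06 with total reads to 0.22 with hepatocyte markers. The median of the 7 tested assembly factors lies right of 0 in each, although 2 of the 7 genes were below 0 as deposited. The median of all 43 with no minimum mean, not drawn, was -0.41.

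The other 27 genes fell short of a mean of 10, with 0 to 24 reads in any library. They included 13 subunits of complex I, 6 of complex IV and 5 of complex V. Their summed value was 183.2, 190.8 and 193.5 in WT against 125.7, 155.6 and 187.5 in HSKO, and the groups overlapped through HSKO replicate 3. HSKO means were below WT means in 19 and above in 8, a share that was not counted over all rows under that level. Closest under the level for testing were Ndufa1 at a mean of 9.95, Cox5b at 9.35 and Ndufs8 at 9.34, and closest above it Ndufa5 at 10.2, Ndufv1 at 10.2 and Ndufs1 at 10.7. Ndufv2, a core iron-sulfur subunit of complex I, had 12, 19 and 20 reads in WT and 4, 4 and 4 in HSKO (read ratio 0.510, exact 95% interval 0.247 to 0.970). Uqcrb, a small subunit of complex III, had 13, 14 and 22 against 1, 5 and 5 (0.487, 0.228 to 0.948). Ndufs7, a core subunit near the ubiquinone site, went the other way through 1 library, with 7, 6 and 3 reads in WT and 2, 3 and 12 in HSKO. Run without a minimum level, limma called 0 of the 58, with a smallest adjusted p of 0.0628, where 1.53% of 13807 rows were called lower and 4.52% higher. At an unadjusted p below 0.05, 9 of the 58 were lower and 0 higher, against 10.1% and 8.44% of those rows. The median log2 fold change of the 58 was then -0.39, against -0.22 over all rows.

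Genes around the chain did not all have lower values. For comparison with the counts below, 11.6% of all rows tested were called lower and 28.5% higher. Of 26 further nuclear subunits and isoforms, 8 were tested (median -0.24), and Sdha was the 1 called lower. Ndufb11, at 22.2 ± 8.50 in WT and 29.0 ± 5.60 in HSKO, and Ndufv3, at 28.4 ± 11.0 and 22.7 ± 9.38, overlapped and did not pass. Genes that bring electrons to ubiquinone by other routes had a median of -0.51 over 6 tested of 8. Etfdh, which passes electrons of fatty acid oxidation to ubiquinone, was the 1 called, falling from 40.9 ± 6.26 to 19.4 ± 2.35 (log2 fold change -1.03, SE 0.27, limma adjusted p = 0.00514). Among mitochondrial carriers, import proteins and chaperones, 12 of 22 were tested (median -0.39), and the chaperone Hspd1 was the 1 called, at 57.3 ± 13.1 and 25.6 ± 4.76 (-1.13, SE 0.27, limma adjusted p = 0.00336). With libraries scaled to hepatocyte markers, neither Etfdh nor Hspd1 passed (adjusted p = 0.350 and 0.260).

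Assembly factors, which insert cofactors and join subunits, had 7 of 43 genes tested. Of these, 5 were called higher and 0 lower, against 28.5% and 11.6% of all rows, with a median of 1.12 against 0.07. Among all rows with a mean of at least 50, 56.8% were called higher, with a median of 0.88. With no minimum mean the median of all 43 was -0.41, the opposite sign, with 4 called higher and 1 lower, so the values below describe the few highly read genes and not the list. Cox11 and Sco2, which deliver copper to cytochrome c oxidase, rose from 32.3 ± 3.80 to 89.3 ± 11.6 and from 21.4 ± 3.56 to 47.9 ± 9.97 (SD, n = 3). Cox15, needed for its heme a, rose from 20.6 ± 4.05 to 48.6 ± 11.2, and Ttc19, a complex III factor, from 89.0 ± 21.7 to 224.0 ± 20.5. Their limma adjusted p ran from 0.000710 to 0.00361. Cox20 was the other, named after its value was seen, from 10.5 ± 2.03 to 22.8 ± 6.72 (limma adjusted p = 0.0179). With total reads, Ttc19 and Cox11 stayed called higher while Cox15, Sco2 and Cox20 did not pass (adjusted p = 0.121, 0.179 and 0.365), 2 of the 7 were called lower and the median was 0.46. Cox16, whose row also names Synj2bp, and Lrpprc, the other two tested, were at -0.31 and -0.78 and did not pass.

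Among regulators of mitochondrial gene expression, 3 of 17 were tested and 1 was called higher, against 28.5% of all rows. Twnk, the mitochondrial DNA helicase, listed under its older symbol Peo1, went up from 165.3 ± 41.0 to 396.7 ± 39.8 (SD, n = 3), by 1.28 on the log2 scale (limma adjusted p = 0.000808). Yy1 and Gabpa did not pass (adjusted p = 0.159 and 0.783). Ppargc1a, the coactivator of mitochondrial biogenesis, had 0, 1 and 1 reads in WT and 2, 1 and 3 in HSKO, and Nrf1 had 3, 3 and 4 against 1, 1 and 1, too few to test. Mitochondrial ribosomal proteins had 7 of 73 tested (median 0.20). Of these, 2 were called higher, Mrps25 and Mrpl19, and 0 lower, against 28.5% and 11.6% of all rows. The median turned to -0.44 with total reads, and to -0.29 over 71 of these genes with no minimum mean. Coq9 was the 1 tested gene of 12 for coenzyme Q synthesis (-0.79, adjusted p = 0.118). The 13 subunits encoded by mitochondrial DNA are not analysed here.

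The start sites of some of these genes carry recurring short motifs. RefSeq promoter windows (build GRCm38.p6, 250 bases before to 50 after a start) were matched for 47 of the 58 genes, in 51 windows, and searched on both strands, counting matches that overlap. The letters GCATGCGC, the inner part of the NRF1 motif, were in 15.7% of these windows, against 5.20% of windows of the rows tested and 2.71% of all windows. The ETS motif bound by GABP, CCGGAAG, was in 25.5%, 15.8% and 8.86%, and the YY1 motif AAGATGGCG in 13.7%, 2.91% and 1.40%. The ERR motif TCAAGGTCA was in 3.92%, 0.268% and 0.423%, which is only 2 of the 51 windows and 7 of 2613 for the rows tested. At least one of the 4 was found for 24 genes and none for 23. These are matches of letters, with no test, and say nothing of binding.

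The 250 bases before the start are shown, 5′ to 3′, for the called gene Cox7b, for Uqcrh and Cycs, with one motif each, and for Atp5g3, which had the highest fold change of the tested genes. Motif letters are in capitals, on either strand. They lie on the build above at chrX:106015450-106015699 (forward), chr4:116075071-116075320, chr6:50566570-50566819 and chr2:73911327-73911576 (each reverse).
Cox7b: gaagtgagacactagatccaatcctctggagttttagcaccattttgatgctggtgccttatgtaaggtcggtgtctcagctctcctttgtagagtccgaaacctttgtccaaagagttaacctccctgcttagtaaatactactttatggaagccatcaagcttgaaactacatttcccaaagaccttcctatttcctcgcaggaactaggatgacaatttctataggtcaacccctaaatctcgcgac
Uqcrh: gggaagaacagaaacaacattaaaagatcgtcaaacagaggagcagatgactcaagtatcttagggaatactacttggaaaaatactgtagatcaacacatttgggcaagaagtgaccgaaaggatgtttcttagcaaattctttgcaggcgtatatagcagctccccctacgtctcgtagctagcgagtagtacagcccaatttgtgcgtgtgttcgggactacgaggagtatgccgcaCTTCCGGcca
Cycs: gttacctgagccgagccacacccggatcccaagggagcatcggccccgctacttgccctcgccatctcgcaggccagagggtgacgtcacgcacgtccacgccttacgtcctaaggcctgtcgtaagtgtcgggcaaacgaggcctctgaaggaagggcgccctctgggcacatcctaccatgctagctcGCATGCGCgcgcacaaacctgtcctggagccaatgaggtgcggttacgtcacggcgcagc
Atp5g3: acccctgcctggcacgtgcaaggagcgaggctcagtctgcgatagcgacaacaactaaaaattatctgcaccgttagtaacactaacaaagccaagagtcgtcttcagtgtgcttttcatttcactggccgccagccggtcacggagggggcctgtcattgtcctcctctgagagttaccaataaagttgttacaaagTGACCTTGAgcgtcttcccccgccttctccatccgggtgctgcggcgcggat

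None of the 4 motifs was in the whole window of Cox7b. In Uqcrh the GABP letters began 10 bases before the start, in the reverse orientation. In Cycs the NRF1 letters began 60 bases before it, and in Atp5g3 the ERR letters began 52 bases before it, also reversed. Sdhb held NRF1 letters 54 bases before its start and GABP letters 7 bases after it. For Atp5a1, the other called gene, no window was matched. Whether motifs and fold changes go together was not tested.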

How the data were processed

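Per the labels, liver RNA was sequenced in 3 HSKO and 3 WT samples. The deposited signal is the reads of a gene after division by each library's size factor. Build mm10, Bowtie, RSEM 1.2.9, DESeq 1.16.0 and FastQC 0.11.3 appear in the submitters' processing notes, with no settings. Strand is unstated, so overlapping genes cannot be told apart. Whole reads were recovered from the deposited values (100% within 0.001 of a whole number). Rows with a mean of at least 10 were tested with limma 3.58.1 (with trend) on log2(value + 1), with Benjamini-Hochberg adjustment over 2750 rows and a threshold of 0.05. On recovered reads, edgeR 4.0.16 called 456 rows lower and 731 higher, and DESeq2 1.42.0 called 325 lower and 584 higher. The code was tested on simulated data. Library values are given for called members, the 2 most highly read and the lowest and highest fold change of each complex and the subunit c genes. Up to 4 of the most highly read genes of other lists are named. Further members and genes were named to account for counts, after their values were seen. Members and lists were chosen with earlier results of these data known. Intervals on reads are exact and cover counting error only.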

Additional observations from a re-analysis of the deposited data

How the results depend on the processing

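Single genes had few reads, and 19 planned and 2 added alternatives were run, the latter chosen after seeing the data (total reads without the largest row, summed reads of the 58 genes). Respiratory chain genes called lower numbered 2 of 31 in the main limma fit (11.6%; brackets give the share of all rows tested). With no minimum mean they were 0 of 58 (1.53%), and with a minimum mean of 50, 1 of only 2 tested (17.2%). Upper quartile scaling gave 1 (7.56%), quantile normalization 5 (18.3%), total reads 22 (38.0%) and total reads without the largest row 18 (33.2%). Hepatocyte markers gave 0 (0.582%), summed reads of the 58 genes 0 (2.55%), array weights 4 (17.8%), edgeR 4 (16.6%) and DESeq2 1 (11.8%). Leaving out 1 library gave 0 without WT replicate 2 (5.78%) or 3 (5.71%) and 1 without HSKO replicate 1 (9.31%). It gave 2 without WT replicate 1 (11.4%), HSKO replicate 2 (8.55%) or HSKO replicate 3 (10.3%). With hepatocyte markers 2 were higher, not 0 (42.7%). Over all 2750 rows, 1103 calls became 738 to 1135 without 1 library. With a minimum mean of 50 there were 509 calls, but among only 688 rows, so that count is not comparable. Same-numbered samples did not deviate together (correlations -0.026, -0.027 and -0.021). With the replicate number as a block, 2 genes were called lower and 269 and 751 rows lower and higher. No call of a respiratory chain gene changed with the block. The cause of these changes was not tested.

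Of 322 values of named genes under the alternatives, 31 changed sign. With hepatocyte markers the log2 fold change was 0.16 for Ndufa10, 0.44 for Ndufb8, 0.13 for Cyc1, 0.36 for Uqcrc1, 0.19 for Uqcrh, 0.15 for Cycs and 0.25 for Atp5b. With total reads it was -0.64 for Ndufs6, -0.43 for Sdhb, -0.65 for Cox4i1 and -0.36 for Atp5g3, and without the largest row -0.46, -0.25, -0.47 and -0.19. Scaled to their own summed reads, Ndufb8 was at 0.15 and Uqcrc1 at 0.084, and with array weights Uqcrc1 was at 0.13. Ndufs6 and Cox4i1 were at -0.049 and -0.22 with quantile normalization, -0.049 and -0.10 with edgeR and -0.088 and -0.15 with DESeq2. Leaving out 1 library gave -0.27 (without HSKO replicate 1) to 0.24 (HSKO replicate 3) for Ndufs6, -0.75 (HSKO replicate 3) to 0.019 (HSKO replicate 1) for Cycs and -0.016 (HSKO replicate 2) to 0.047 (HSKO replicate 1) for Cox4i1.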
